A study of Caenorhabditis elegans with 12 samples.

Results

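In a table of A-to-G positions of Caenorhabditis elegans, 270 of the 2073 regions on chromosomes II, III, IV, V and X held positions on both DNA strands. They contained 20155 of the 60630 listed positions of these chromosomes, or 33.2%. A listed position, called a site here, is an adenosine of the genome that was read as guanosine in RNA, on the plus or on the minus strand. Neighbouring sites no more than 1000 bp apart were joined into a region whatever their strand, and the 270 members were selected on the listed strands alone, with at least 1 plus and 1 minus site. Position and strand therefore chose the members, and values of strand balance and arrangement are given as a description without a test.

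The series comprised 12 RNA-seq libraries of whole worms of the wild-type strain Bristol N2. There were 6 developmental stages, of which the labels call stage 1 embryo, stages 2 to 5 L1-L4 and stage 6 Young Adult. After removal of ribosomal RNA, 1 library of each stage was treated with the exonuclease RNase R, which leaves circular RNA intact, and 1 was mock treated. The table names no library, so no value could be assigned to a stage or treatment, no value has a replicate error, and no test over samples was possible. Depth is unknown, as is the fraction of reads edited at a site. How strands were assigned is not given in the sources used here.

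Adenosines are deaminated to inosine by ADAR enzymes, and sequencing reads inosine as guanosine. The enzymes act on double-stranded RNA, which forms in 2 common ways. An inverted repeat within a transcript folds into a hairpin, and both of its arms then carry edits on the strand of that transcript. A pair of overlapping transcripts from opposite strands can also anneal, and edits can then appear on both strands of the same DNA. In C. elegans, edited double-stranded RNA is known mainly from non-coding sequence, such as introns and intergenic transcripts.

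The bases around the sites are shown first, because they carry the arrangement of the strands. The table gives 3 bases for each site, and overlapping triplets gave longer stretches: 42189 bases were covered more than once, with 0 conflicts. In all sequences printed here, read 5′ to 3′, capitals mark listed sites of the strand shown and n is a base that no triplet covers. The genome build of the coordinates is not named in the sources used here. The first set comes from the 2 members with the most changes of strand, and each stretch is printed on both strands, so that the lines are reverse complements and differ in which adenosines were listed.
chrIII:13780640-13780669, plus: ActtcgAAgttgAtgcttttcAAAAtttcA
chrIII:13780640-13780669, minus: tgAAAttttgAAaAgcAtcAActtcgAAgt
chrIV:10351397-10351426, plus: attAtcAactgttcAtAAAActttcctttA
chrIV:10351397-10351426, minus: tAAAggAAAgttttAtgAacAgttgatAAt

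In the 30 bases on chromosome III, 9 adenosines of the plus strand and 11 of the minus strand were listed. In the 30 bases on chromosome IV, the numbers were 8 and 11. Sites of the opposite strands thus lay within the same few bases.

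The second set comes from members in which a minus site mirrored a plus site about an axis. Here the lines of a pair come from different places in the region, on opposite strands, and read alike where both are known.
chrII:15115061-15115090, plus: tAanntAAcnngAAgAAAgnctAAattnnn
chrII:15114440-15114469, minus: tAAantAannngAAgnaAgnctAAAttnat
chrIII:12612132-12612161, plus: gAAaAgnnnncAAgAAgtttcAttAtnaAA
chrIII:12611722-12611751, minus: gAAAAgttttcAAgnnntttnattAtgAAA
chrV:18996266-18996295, plus: tAAAaAcAcnnaAtnnnntAAtgAAAcnnn
chrV:18996700-18996729, minus: tAAaaAcnnnnaAtttcatAAtgAancttc
chrX:1011604-1011633, plus: cAAAAAAtAtngAtAAgnngAtgAAActAg
chrX:1012186-1012215, minus: cAAAAaatAtnnatAAgatgAtgnnnctAg

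These windows of 30 bases were placed where the most mirrored sites fell together. They held 7 mirrored sites on chromosome II, 8 on III, 7 on V and 9 on X. Sequence that recurs in this way on the opposite strand is what an inverted repeat in DNA looks like. Mirrored sites share their triplet by the definition given below, so the lines could differ only at other bases. Over whole members, not every known pair of bases matched, as given below.

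Members were larger than the other regions. The median member had 45 sites (quartiles 25 and 92.8) over a span of 724 bp, while the 1803 regions with sites on one strand had a median of 12 sites (quartiles 7 and 25) over 86 bp. The share of regions with both strands rose with the number of sites. No strand of any region had fewer than 4 sites, so the 511 regions with 4 to 7 sites could not be members. Of regions with 8 to 15 sites, 3.49% were members (22 of 631), and the share was 17.5% for 16 to 31 sites (70 of 400) and 25.6% for 32 to 63 sites (76 of 297). It reached 36.9% for 64 to 127 sites (58 of 157) and 57.1% for 128 or more sites (44 of 77; exact 95% interval 45.4 to 68.4%). Intervals of shares are exact binomial intervals over regions and intervals of medians are order-statistic intervals. Both cover counting error only. Regions of like numbers of sites are therefore compared below.

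The members were found on every chromosome examined. Chromosome III had 78 members, or 15.6% of its 500 regions, and chromosome II had 64 of 421 (15.2%). Chromosome V had 55 of 464 (11.9%) and IV had 56 of 493 (11.4%). Chromosome X had the lowest share, with 17 of 195 (8.72%; interval 5.16 to 13.6%). The intervals of II and III (11.9 to 18.99% and 12.5 to 19.1%) overlapped that of X. Per Mb of listed length, chromosome III had 5.66 members and chromosome II 4.20, while IV had 3.23, V had 2.63 and X had 0.960.

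The 2 strands contributed near-equal numbers to the members as a whole, with 10223 plus sites and 9932 minus sites. Plus was the majority strand in 128 members, minus in 130, and 12 members had equal numbers. Within a member the strands were mostly unequal. The minority strand held a median of 28.4% of the sites (quartiles 17.9 and 39.1%, range 3.19 to 50%), and at least 40% in 64 members. In numbers, the minority strand had a median of 10 sites (quartiles 7 and 17.8) and the majority strand 34 (quartiles 16 and 71.8). The minority share fell with size, from a median of 40% in members of 8 to 15 sites to 18.5% in those of 128 or more, while the minority number rose from 6 to 28.

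**Figure D1:**
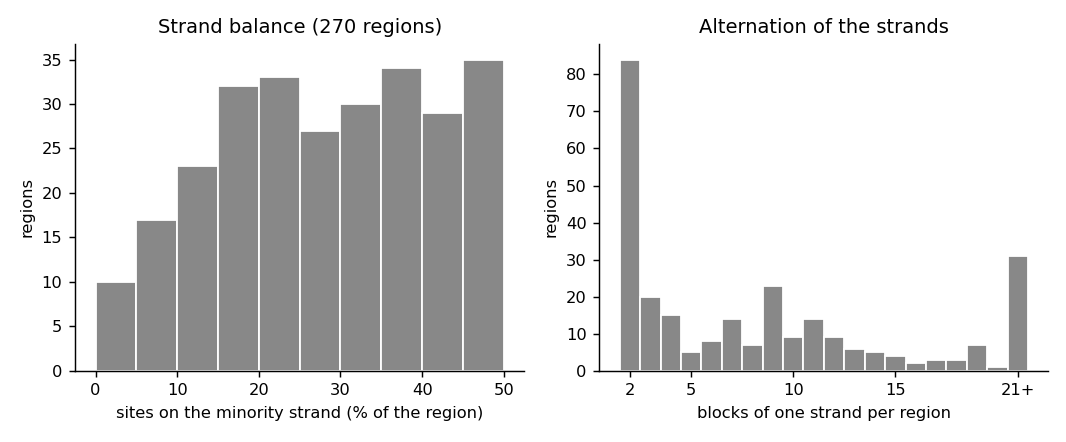
Left, number of members by the percentage of their sites on the minority strand, in bins of 5 percentage points; right, number of members by the number of blocks, a block being a stretch of consecutive sites of one strand (values of 21 or more share the last bar). The minority share spreads from 3.19 to 50% with a median of 28.4%, and 84 members have only 2 blocks.

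The rule asked for 1 site on each strand, but no member had fewer than 4 minority sites, so none lay at that edge. Exactly 4 were found in 13 members. The largest of these 13 were a region at chrIV:2375206-2375663 with 21 minus and 4 plus sites, one at chrV:19688219-19688437 with 17 plus and 4 minus sites, and one at chrV:11102305-11102479 with 15 plus and 4 minus sites. In all 3, the strands formed 2 blocks, with gaps of 44, 79 and 23 bp. At the edge set by the merging distance, the widest gaps inside 2-block members were 894, 963 and 988 bp, and the nearest pairs of regions on opposite strands left unmerged were 1042, 1108 and 1161 bp apart.

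In 163 members (60.4%; interval 54.3 to 66.2%), the minority strand consisted of 1 run of sites, from first to last at most 100 bp apart, with a score of 1 at every site. The score is a whole number that the authors deposited for each site without saying what it counts. The minority strand thus was a single short, low-scoring run in most members. A further 33 members also had 1 minority run, but a longer one or one with higher scores.

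Most members had plus and minus sites intermixed. In 84 members (31.1%; interval 25.6 to 37.0%), by contrast, all sites of one strand came before all sites of the other. A further 20 members had 3 blocks and 166 (61.5%) had 4 or more, with a median of 7 blocks over all members and 11 or more in 85. Described by spans, the sites of the strands overlapped in 186 members (68.9%). In 114 of these, the sites of one strand all lay inside the span of the other, and in 72 the spans overlapped in part. Counting only blocks of at least 4 sites, 49.3% of members with both strands left had 2 blocks, and of members with at least 10 minority sites 13.8% did. Merging at 100 bp gave 18.2%. The overlap was short in most cases, with a median of 90 bp (quartiles 63 and 492).

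Separate blocks were typical of small members. The 84 members with 2 blocks had a median of 23.5 sites, and the 166 with 4 or more blocks had 72.5. Their minority share was higher, with a median of 34.3% against 25.8%. In the 2-block members, the gap between the last site of one strand and the first of the other had a median of 193 bp (quartiles 114 and 461, range 3 to 988). It was at most 100 bp in 19, at most 200 bp in 43 and at most 500 bp in 65.

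The plus block came first along the chromosome in 50 of the 84 and the minus block in 34, a share of 59.5% whose interval (48.3 to 70.1%) included an even division. With the plus block first, transcripts of the strands would run toward each other. The median gap was 292 bp (95% interval of the median 137 to 453) in that order and 164 bp (129 to 288) in the other, so the intervals overlapped. Merging at 300 bp left a plus-first share of 46.4%, on the other side of an even division.

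**Figure D2:**
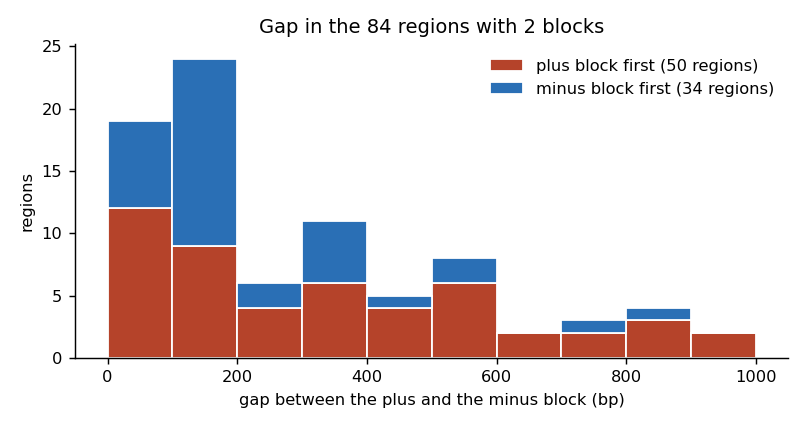
Number of 2-block members (y axis) by the gap in bp between the plus and the minus block (x axis, bins of 100 bp), stacked by which block comes first along the chromosome. Of the 84 gaps, 43 are at most 200 bp, and the 50 plus-first and 34 minus-first members both reach beyond 500 bp.

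Only 2 members had 2 blocks with at least 20 sites on each strand. The region chrII:142884-143608 had 35 minus sites, then a gap of 163 bp, then 35 plus sites. Scores reached 2 on both strands. The region chrII:12285508-12286683 had 25 minus sites within 100 bp, a gap of 540 bp and 49 plus sites. Its minus sites all scored 1, and its plus sites had a median score of 2 and reached 5.

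Where strands alternated, opposite sites were close neighbours. Over the members with 3 or more blocks, the 2794 steps from a site to a following site of the other strand had a median of 3 bp (quartiles 1 and 7). Members with many blocks weigh most in this value, and the largest member gave 320 of the steps. With blocks of at least 4 sites only, the median step was 48 bp. In members with overlapping spans, the median minority site lay 5.25 bp from the nearest majority site (median over 186 members, quartiles 3 and 27.9). A plus adenosine followed by T faces an adenosine of the minus strand at its next position. Inside the span of the minus sites, 1085 listed plus sites were followed by T, and in 227 (20.9%) that next minus adenosine was also listed. Over all members, a plus site was directly followed by a minus site 230 times, and the largest member gave 56 of these. The other order, a minus site directly followed by a plus site, occurred 487 times.

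The largest member, chrIII:13778793-13781346, alternated over most of its 2554 bp. It had 364 plus and 520 minus sites in 321 blocks, and the plus sites extended over 2250 bp inside the span of the minus sites. Its strands had like scores, and both had a median of 2 with a highest value of 12. Its sites numbered 34.6 per 100 bp, and 56 of its plus sites were directly followed by a minus site.

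A second member of this form was chrIV:10350689-10351570, with 141 plus and 153 minus sites in 102 blocks over 882 bp. Both strands had a median score of 2 and a highest score of 7. Both members also came near to equal strands, with a minority share of 41.2% on chromosome III and 48.0% on IV. Another balanced region, chrIII:1280962-1286769, had 139 sites on each strand, but in 40 blocks over 5808 bp, with maxima of 6 and 5.

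**Figure D3:**
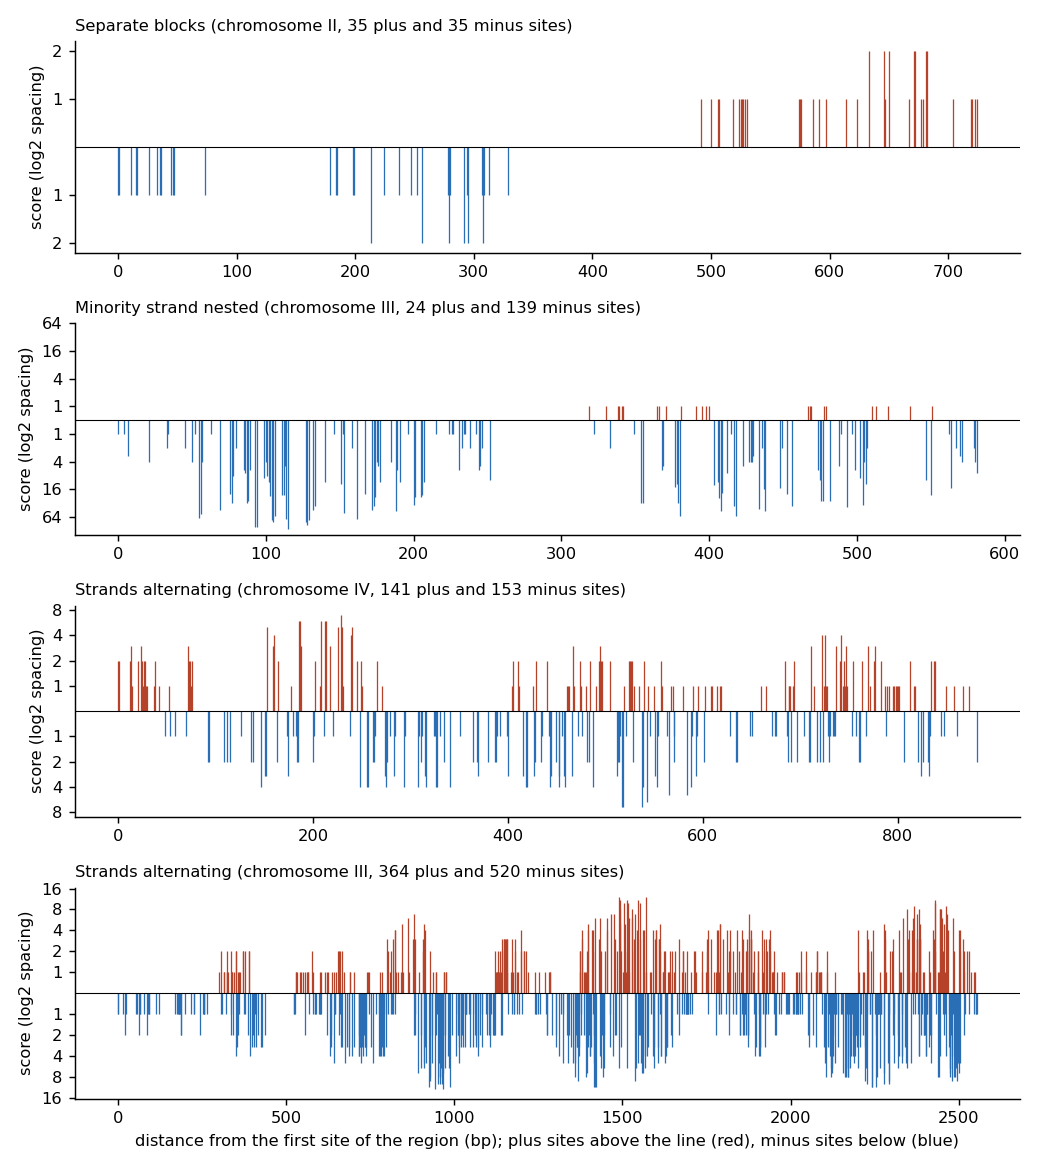
Sites of 4 members by distance in bp from the first site of the region (x axis), with plus sites upward in red and minus sites downward in blue; the length of a line gives the score on log2 spacing, a score of 1 being drawn at 1 unit. From top to bottom, the members show separate blocks, a minority strand with scores of 1 only inside the span of the other strand, and 2 cases of alternating strands with maxima of 7 and 12 on both.

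Several of the largest members had a dominant strand. The region chrIV:2359946-2367672 had 413 plus and 17 minus sites, chrIII:12501579-12504488 had 388 plus and 17 minus sites, and chrIV:1733669-1734998 had 273 minus and 9 plus sites. In each of these 3, every minority site had a score of 1 and lay inside the span of the majority, whose maxima were 7, 36 and 32. The region chrIV:16403696-16409911 had 367 plus and 37 minus sites, with maxima of 9 and 2. In chrII:1827299-1829358, 282 plus sites had a median score of 4 and reached 43, while 70 minus sites had a median of 1 and reached 2. Of the 10 largest members, chrII:431199-435348 (190 plus, 99 minus; maxima 11 and 4) and chrIII:12609059-12612215 (148 plus, 144 minus; maxima 33 and 15) completed the list. In the last of these, the numbers of sites were nearly equal while the scores were not.

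Scores were higher on the majority strand in most members. The rule applied to sites with a score of at least 2 alone left 58 both-strand regions, and 6 with a score of at least 5. Among the 258 members with unequal strands, the mean log2 score was higher on the majority strand in 171 (66.3%; interval 60.2 to 72.0%) and higher on the minority strand in 22. The remaining 65 had only scores of 1 on both strands. All minority scores were 1 in 198 members (76.7%), and all majority scores were 1 in 72 (27.9%). The difference, majority minus minority, had a median of 0.28 on the log2 scale (quartiles 0 and 0.71). The number of reads on either strand is unknown, and its part in this difference was not tested. By the median score in place of the mean log2 score, the majority was higher in only 23.6%.

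The majority strand had the higher score more often where the strands were less balanced. With a minority share under 20%, the majority had the higher mean log2 score in 75 of 82 members and the minority in 3. With a share of at least 40%, the numbers were 20 and 7 of 52. The remaining members of both groups had only scores of 1 on both strands. Balanced members were also smaller. Scores of 1 only were found in 90.9% of members with 8 to 15 sites and in 1.72% with 64 to 127. The part of site number in this contrast was not tested. A highest score of at least 5 on both strands occurred in 7 members, and on 1 strand only in 87. By strand as such, plus was higher in 108 and minus in 91 of the 270 members.

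In the 3 members with the highest median score among those of at least 50 sites (ties went to the member with more sites), every score above 1 lay on 1 strand. Other members of at least 50 sites tied with the last of them at a median score of 4. The same held for chrII:13475751-13476395 and chrIII:13066389-13066771, where every minority site scored 1. It did not hold for 2 more. In chrIV:4474474-4475397, the 49 plus sites had a mean log2 score of 0.22 and the 199 minus sites 2.77. In chrX:1011580-1012308, the minus sites of the minority reached 2. In chrV:2646466-2646867, 97 plus sites had a median score of 14 and reached 143, and 7 minus sites within 93 bp all scored 1. In chrIII:12223929-12224510, 139 minus sites had a median of 9 and reached 114, and 24 plus sites all scored 1. In chrIV:1733669-1734998, the minus sites had a median score of 4 and the plus sites scored 1.

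Members were then compared with regions of like site number on one strand, by classes of doubling width. For 32 to 63 sites, the mean log2 score had a median of 0.28 in 76 members (quartiles 0.12 and 0.47) and 0.50 in 221 one-strand regions (quartiles 0.26 and 0.76). For 64 to 127 sites, it was 0.50 in 58 members (0.29 and 0.68) and 0.88 in 99 one-strand regions (0.60 and 1.20). For 128 or more sites, it was 0.75 in 44 members (0.53 and 1.04) and 1.13 in 33 others (0.81 and 1.40). In these 3 classes, then, members had the lower medians, with quartile ranges that overlapped. The share of regions with scores of 1 only was 55.7% of members and 36.1% of one-strand regions among those of 16 to 31 sites. These differences were not tested.

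The majority strand taken alone came closer to one-strand regions with as many sites. Its median was 0.39 for 32 to 63 sites, 0.66 for 64 to 127 and 1.00 for 128 or more, against 0.50, 0.88 and 1.13. Over all 258 members, the majority strand was above the median of one-strand regions of its class in 99 and below in 115. The minority strand taken alone was above it in 31 and below in 71. Minority strands of 4 to 7 sites had scores of 1 only in 98.8% of 81 cases, and one-strand regions of that size in 97.8% of 511. For 16 to 31 sites the shares were 70.4% of 54 minority strands and 36.1% of 330 one-strand regions.

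**Figure D4:**
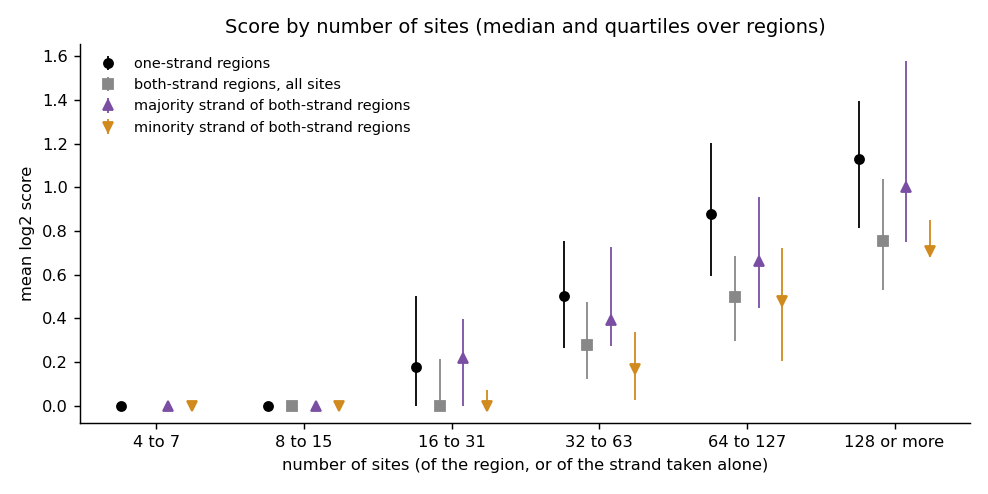
Mean log2 score (y axis) by number of sites (x axis) for one-strand regions, for all sites of both-strand regions, and for the majority and the minority strand of the latter taken alone in the class of that strand's own number of sites; points are medians over regions and lines reach from the lower to the upper quartile. From 32 sites on, the median of both-strand regions lies below that of one-strand regions (0.28 against 0.50 at 32 to 63 sites), and the majority strand lies between them.

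Site density was lower in small members and similar in large ones. For 16 to 31 sites, members had a median of 4.49 sites per 100 bp and one-strand regions 8.46. For 64 to 127 sites the values were 9.28 and 9.67, and for 128 or more 9.89 and 11.3. Against one-strand regions of its class, the median difference of a member was -1.81 sites per 100 bp (interval of the median -2.79 to -0.858). With regions merged at 100 bp in place of 1000, the difference was 0.44 in the other direction. Density comes from the positions that the rule used, and the span of a member includes any gap between its strands. The density difference is thus a description, and the part of such gaps in it was not tested.

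The bases next to the sites were compared in 2 ways, between strands and with one-strand regions. Editing by ADAR is known to depend on the neighbouring bases, and a G just upstream of the adenosine is unfavourable. G preceded 10.2% of the 15017 majority sites and 9.99% of the 4586 minority sites of members with unequal strands. It followed 17.0% and 18.8%. G was thus more frequent after than before a site, by 6.78 percentage points on the majority and 8.85 on the minority strand. Sites of a region are not independent, and the strands were not matched for number of sites, so no interval is given. For members as a whole the difference between after and before was 7.33 points. For one-strand regions it was 6.42 points, with each class of site number weighted by the sites of the members. Members were thus 0.92 points higher in this difference. They were also higher in it in each of the 5 classes that both kinds share. The values were 12.0 against 10.2 points at 8 to 15 sites and 6.53 against 5.75 at 128 or more. With no matching for site number, the sign was reversed, at -0.73 points. The same held, at -0.15 points, with the one-strand classes weighted by the number of member regions. The members were still pooled over sites. G before the site, taken alone, was not lower in members throughout. It was higher at 8 to 15 sites (11.3% against 9.39%), at 32 to 63 (9.28% against 9.10%) and at 128 or more. It was lower at 16 to 31 sites (8.86% against 8.89%) and at 64 to 127 (9.56% against 9.94%). G after the site was higher in members in each shared class except 64 to 127 sites (15.86% against 15.96%).

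Members lay on chromosome arms, here the parts of the listed length outside the central 1 of 3 equal parts, in 237 of 270 cases (87.8%; interval 83.3 to 91.4%). One-strand regions did so in 81.6%, and in 86.5% when weighted to the site numbers of the members. Runs of 8 successive sites, identical in triplets and spacing, recurred in another region for 51 of the 260 members with 8 sites in a run (19.6%). Among one-strand regions, they did so for 111 of 1266 (8.77%). By site number, members did not have consistently higher shares. For 128 or more sites, 25 of 44 members and 18 of 33 one-strand regions shared one, or 56.8% and 54.5%. For 64 to 127 sites, the shares were 24.1% of members and 39.4% of one-strand regions. They were 15.8% and 16.7% for 32 to 63 sites. For 16 to 31 sites, 0 of 68 members and 15 of 328 one-strand regions shared one.

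Strands of the same member were then compared with each other. Only 1 member, chrII:15114363-15115179, had a pattern of 8 consecutive sites on the plus strand that recurred on its minus strand, each read 5′ to 3′. This is a strict measure, because a single unlisted adenosine breaks a pattern. Mirrored sites were therefore counted: a plus and a minus site with the same triplet on their own strands and at equal distance from an axis. A member was taken as mirrored if its best axis had at least 6 such pairs and at least 2 times as many as the next. This rule was set after the data had been seen.

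In 45 of the 270 members (16.7%; interval 12.4 to 21.7%), plus and minus sites mirrored each other. With a fixed shift in place of the reflection, the same rule found 0 members, which allows a share of up to 1.36% (upper exact bound). At the axes of the 45, facing bases that triplets made known were complementary in 2152 of 2270 cases (94.8%). With the sum of the paired coordinates moved by 11 to 20 bp either way, 32.8% were complementary. Outside the triplets of the mirrored sites, which the search used, 821 of 939 facing bases were complementary (87.4%). Most of the 939 lay in 11 members, those with mirrored plus sites on both sides of the axis. For most of the 45, few or no bases outside the triplets were known. In 20 of the 45, no known pair of bases was a mismatch. That count includes the triplets of mirrored sites, which cannot mismatch under the rule. Outside these triplets, the 20 had few known pairs, from 0 in chrII:142884-143608 to 6 in chrIII:12044683-12045369.

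Mirrored members were larger, with a median of 92 sites against 40 in the other 225. They made up 13.2% of members with 32 to 63 sites (10 of 76), 41.4% with 64 to 127 (24 of 58) and 25% with 128 or more (11 of 44), and none of those with fewer than 32 sites. A strand with fewer than 6 sites cannot pass this rule. There were 10 on chromosome II, 15 on III, 11 on IV, 7 on V and 2 on X. They included 5 of the 84 members with 2 blocks and 38 of the 166 with 4 or more.

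The geometry took 2 forms. In 34 members, the mirrored plus sites lay on one side of the axis and the minus sites on the other, with a median of 296 bp between the arms (quartiles 158 and 439, range 40 to 804). In 27 of the 32 of these with unequal strands, the majority strand had sites in the arm of the minority strand as well, so that this strand carried sites on both arms. In the other 11, mirrored plus sites lay on both sides of the axis.

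The region chrII:15114363-15115179 had the most mirrored pairs, 45 of its 85 plus and 74 minus sites, against 16 for the next axis. Of its known facing bases, 223 were complementary and 2 were not. Outside the triplets of mirrored sites, 114 were complementary and 2 were not. Its scores were low on both strands, with maxima of 3 on plus and 5 on minus. The regions chrIII:11498226-11498796 and chrIII:302700-304596 followed with 36 and 32 pairs.

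The mirrored share of the minority strand varied. A minority of 6 or 7 sites can pass the rule only with nearly all of them mirrored, so the share of such members is fixed by the rule. In chrV:18995551-18996747, 15 of 16 minus sites mirrored plus sites, and all 39 known facing bases were complementary. Only 2 of the 39 lay outside the triplets of mirrored sites, which match under the rule. The arms were 349 bp apart. In chrIV:3243650-3244638, all 6 minus sites were mirrored, with 66 plus sites in the region and 804 bp between the arms. In chrIV:15030510-15031039, 9 of 10 minus sites were mirrored. In chrIII:12044683-12045369, the roles were exchanged, and 6 of 7 plus sites mirrored minus sites. Other members with few minority sites had lower shares, such as 6 of 13 in chrII:14277155-14278272 and 6 of 9 in chrV:11324788-11325861. Over the 45 members, the mirrored sites made up a median of 58.8% of the minority sites (quartiles 38.5 and 75%).

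Mirrored sites had unequal scores in most pairs. Of 540 pairs, 180 had the same score on both strands (33.3%). In the members with unequal strands, the majority site had the higher score in 282 of 523 pairs and the minority site in 66. In chrX:1011580-1012308, all 18 plus sites of mirrored pairs scored higher than their minus partners. Its 102 plus sites had a median score of 7.5 and reached 111, and its 29 minus sites had a median of 1 and reached 2.

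Whether reads of one strand were placed on both arms, or both strands were transcribed and edited, cannot be told apart from a list of sites. The 2 members with the most strand changes were not mirrored by the rule. The region chrIII:13778793-13781346 had 17 pairs on its best axis and 16 on the next, and chrIV:10350689-10351570 had 9 and 8. In chrII:431199-435348, the axes had 37 and 34 pairs, so more than 1 axis fitted nearly equally.

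**Figure D5:**
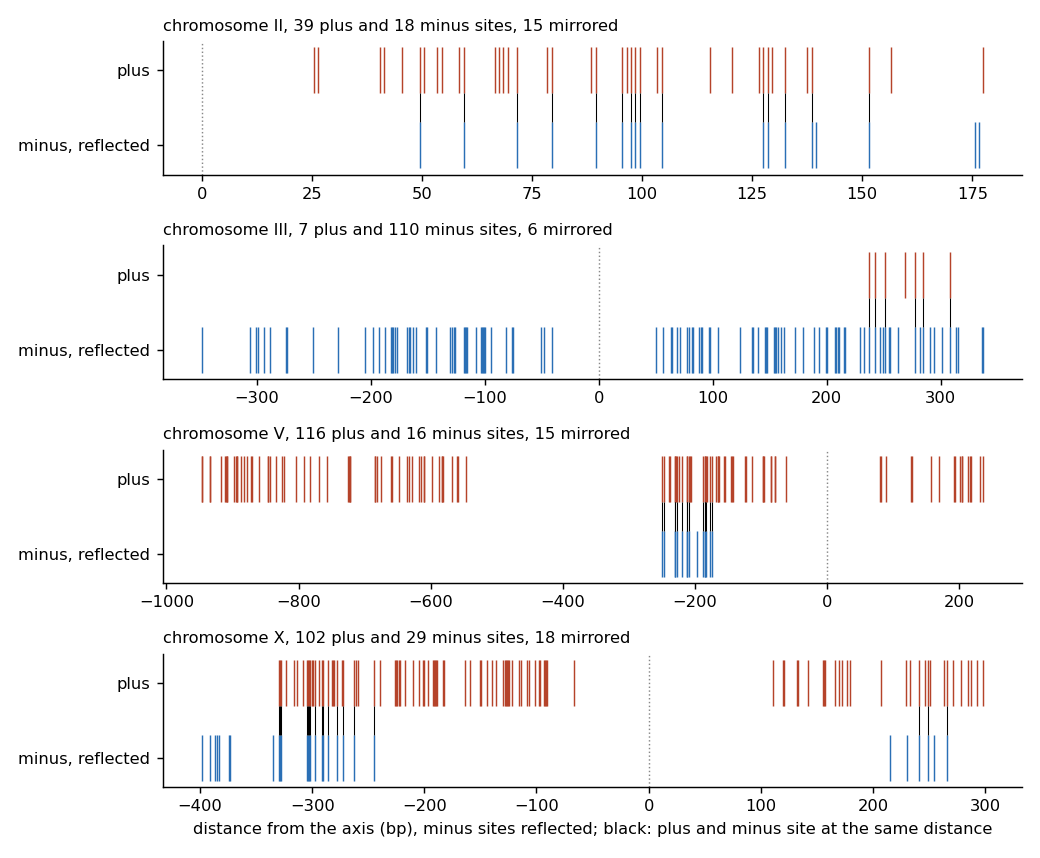
Sites of 4 mirrored members by distance in bp from the axis (x axis), with plus sites in the upper row and minus sites, reflected about the axis, in the lower row; black lines join a plus and a minus site at the same distance. From top to bottom, 15 of 18 minus sites, 6 of 7 plus sites, 15 of 16 minus sites and 18 of 29 minus sites coincide with a site of the other strand.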

How the data were processed

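The authors deposited, for the whole series, a table of C. elegans positions without a header: chromosome, a 1-base interval, 3 plus-strand bases, a whole-number score and a strand. The sources used here do not name its caller, filters, strand assignment or genome build, and it has no depth. No position was assigned to a gene, because no genome of the table's build was at hand. Coordinates are 1-based. The table of human positions and other worm chromosomes were not used.

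Regions, blocks (consecutive sites of one strand), runs (same-strand sites at most 100 bp apart) and mirrored sites were computed with Python 3.11.15, pandas 2.3.3, NumPy 2.4.6 and SciPy 1.17.1, and the functions were tested on simulated data. Like site numbers meant classes of 4 to 7, 8 to 15, 16 to 31, 32 to 63, 64 to 127 and 128 or more sites. Shares have exact binomial 95% intervals and medians exact order-statistic intervals, both for counting error of regions. Neighbouring bases were compared over pooled sites, with no interval. No test was made.

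Named were the 10 members with the most sites. Of members with 50 sites or more, the 3 most balanced, the 3 with the most strand changes and the 3 with the highest median score were added. So were the 2-block members with 20 sites on each strand, the 3 with the fewest minority sites and those with a pattern shared between strands. Members named for mirrored sites were added with their values in view. The members and all definitions were chosen with earlier results of these data known. Alternatives changed the merging distance, the minimum score, the matching, the chromosomes included and the rules for blocks, patterns and mirrored sites.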

Additional observations from a re-analysis of the deposited data

How the results depend on the processing

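Of 154 values recomputed under alternatives, 103 moved by no more than the limit set for them, 47 moved further and 4 changed sign. The alternatives for mirrored sites, for single strands and for weights by regions were chosen after seeing the data. The cause of a shift was not tested.

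The score difference from one-strand regions of like site number was -0.18 (log2). A member of 16 to 31 sites with scores of 1 only takes this value, as the one-strand median there was 0.18. The interval of the difference had no width (-0.18 to -0.18), so any change counted as moved further. Of the 47 values that moved further, 16 were of this result. The difference was -0.31, -0.24, -0.23, -0.15 and -0.10 with merging at 100, 300, 500, 2000 and 5000 bp. It was -0.19, -0.16, -0.19 and -0.18 without chromosome II, III, IV or X. It was -0.24 with scores of at least 2, -0.29 with at least 10 minority sites, -0.15 with classes of 5 sites, -0.42 for the highest score and 0 for the median score. The majority or the minority strand alone gave 0, and no matching gave 0.30. Density differed by 0.44, -0.60 and -4.05 sites per 100 bp with merging at 100 bp, at 300 bp and with no matching.

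The share of members with 2 blocks was 18.2% and 39.4% with merging at 100 and 5000 bp, 16.7% with scores of at least 5, 13.8% with at least 10 minority sites and 49.3% with blocks of at least 4 sites. The plus block came first in 46.4% with merging at 300 bp and in 33.3% with scores of at least 2. Steps between strands had a median of 4 bp with scores of at least 2 or 5 or without chromosome III, and of 48 bp with blocks of at least 4 sites. The minority share was 32.9% with merging at 100 bp and 32.0% with scores of at least 5. Members numbered 58 and 6 with scores of at least 2 and 5.

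The majority had the higher score in 73.7% with scores of at least 2, 76.7% with at least 10 minority sites and 23.6% by median score. The G difference of 0.92 points turned to -0.73 with no matching and to -0.15 with one-strand classes weighted by regions. It was 1.24 with every region weighted equally and 0.50 without chromosome V. The arm difference was 6.14 points with no matching. Patterns shared between strands were found in 6.30% with 5 sites, and in 0 with 12 sites, without chromosome II or with scores of at least 2. Mirrored members made up 10%, 7.04% and 10.7% with at least 8 pairs, at least 10 pairs or an axis ratio of 3, and 7.63%, 9.34% and 8.62% with merging at 100 or 5000 bp or scores of at least 2.

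No paired analysis was possible because the table names no sample. Depth is unknown, so no limit can be given for a strand without listed sites.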
